A study of Mus musculus with 6 samples.

Results

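The 10 genes studied here coat, build or empty lipid droplets, and were followed across 3 tissues of the mouse hind limb. They are the droplet coat genes Plin1, Plin2, Plin4, Plin5 and Cidec, the lipase genes Pnpla2, Lipe and Mgll, and the droplet assembly genes Fitm1 and Fitm2. The members are a fixed list of symbols, and all 10 were found once each among 20672 genes in any count table and among the 16964 genes listed for all 3 tissues. RNA was sequenced from the infrapatellar fat pad (an adipose cushion below the kneecap), the Achilles tendon and the rectus femoris (a thigh muscle) of female mice, with 2 libraries a tissue. Letrozole, an inhibitor of oestrogen synthesis, is the subject of the series. Titles of the fat pad libraries name the drug and those of tendon and muscle do not. Letrozole and tissue therefore cannot be told apart wherever the fat pad is compared. Unexplained codes in the titles also differ between the 3 tissues. Whatever they mark cannot be told apart from tissue in any contrast, tendon over muscle included. Strain, age, dose and duration are not given in the labels, fat pad and tendon titles carry an unexplained word, combined, and no label marks a treated and an untreated library within a tissue. Whether both libraries of a tissue stem from different mice is not stated, so the p-values speak only to the spread seen between the libraries at hand, and that spread may be technical.

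A lipid droplet is a core of triglyceride and sterol ester under a single layer of phospholipid, and its surface proteins decide how easily lipases reach the core. Perilipins form that coat, and in adipocytes the coat protein perilipin 1 holds back breakdown until adrenergic signals phosphorylate it. Breakdown then runs in order through adipose triglyceride lipase (Pnpla2), hormone-sensitive lipase (Lipe) and monoacylglycerol lipase (Mgll). The FIT proteins sit in the endoplasmic reticulum and help new droplets to form there. White adipocytes store 1 large droplet, whereas muscle fibres keep many small droplets beside their mitochondria.

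The fat pad libraries held 83132413 and 106319037 counts, and the other 4 libraries held 56216295 to 62063826. Adipoq, which encodes the adipocyte hormone adiponectin, stood at 5314 and 5513 CPM (counts scaled to library size, after TMM normalization) in fat pad libraries, 269 and 24.9 in tendon, and 23.5 and 67.2 in muscle. In counts, tendon library 1 thus held more Adipoq than tendon library 2, while the TPM columns gave 784 and 880 TPM. Tendon library 2 held more fast muscle transcript, with Myh4, the fastest myosin heavy chain, at 596 CPM in library 1 and 19283 in library 2, while the TPM columns gave Myh4 the other order, 3689 and 744 TPM. Tenocyte markers (8 genes, all above 0 in every library) summed to 679 and 421 CPM in fat pad libraries, 18523 and 19181 in tendon, and 2196 and 1476 in muscle. Ucp1, the uncoupling protein of brown fat, was at 1.46 CPM or less in every library. The authors also deposited TPM (abundance per transcript length and library size) under the same library names. Across genes, the log2 difference between libraries 1 and 2 in TPM went with that in counts in the fat pad (r = 0.994 over 13158 genes). In tendon (r = -0.224 over 12850 genes) and muscle (r = -0.207 over 11615 genes) it did not. Whether count and TPM columns of the same name hold the same libraries in these 2 tissues is therefore uncertain, and pairs of count and TPM values by library number are to be read with that doubt. Counts are the main values because the tests need them, not because they were shown to be the better measure, and TPM is set beside them for chosen results.

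The promoters of Plin1, Cidec and Fitm1 are shown because the first 2 rose in the fat pad over muscle and the third had no count in the fat pad. They run from 250 bases before to 50 bases after the RefSeq start on GRCm38.p6, 5′ to 3′ on the gene's strand. Cidec has 2 such windows, and the 1 shown holds TTGCNNAA and no CAGCTG. Its window not shown, chr6:113435711-113436010, holds CAGCTG and no TTGCNNAA. Capitals mark CAGCTG, an E-box of the kind that myogenic factors bind, or TTGCNNAA, a match to the core of C/EBP sites, each searched on both strands.
Plin1, chr7:79732727-79733026, minus strand: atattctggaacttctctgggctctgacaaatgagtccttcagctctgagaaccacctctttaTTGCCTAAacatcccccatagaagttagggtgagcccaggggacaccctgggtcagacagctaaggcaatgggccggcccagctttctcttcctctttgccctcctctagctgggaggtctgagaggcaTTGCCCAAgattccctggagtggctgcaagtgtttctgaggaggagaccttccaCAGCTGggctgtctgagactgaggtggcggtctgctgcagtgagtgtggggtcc
Cidec, chr6:113434715-113435014, minus strand: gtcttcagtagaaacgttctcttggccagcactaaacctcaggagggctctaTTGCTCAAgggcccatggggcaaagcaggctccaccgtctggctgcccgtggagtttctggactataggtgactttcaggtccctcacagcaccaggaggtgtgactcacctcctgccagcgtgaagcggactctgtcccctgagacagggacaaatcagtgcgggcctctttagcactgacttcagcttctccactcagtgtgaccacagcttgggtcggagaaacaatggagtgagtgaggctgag
Fitm1, chr14:55575424-55575723, plus strand: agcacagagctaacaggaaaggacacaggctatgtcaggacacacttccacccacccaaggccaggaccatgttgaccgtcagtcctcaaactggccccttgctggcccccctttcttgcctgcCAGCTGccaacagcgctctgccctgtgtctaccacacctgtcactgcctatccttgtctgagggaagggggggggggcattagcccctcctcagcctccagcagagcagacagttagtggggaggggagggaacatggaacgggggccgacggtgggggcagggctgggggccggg
CAGCTG was found in 5 of the 14 windows of the 10 genes. These were windows of Plin1, Plin2, Plin5, Fitm1 and Cidec, the last in the window not shown. It was in 16.3% of 32851 RefSeq promoter windows of the same length. TTGCNNAA was found in 2 of the 14 windows (Plin1 and Cidec) and in 10.8% of all windows, and the nuclear receptor motif AGGTCA in 3 windows of Plin2 and Plin5 and in 16.3% of all. The direct repeat of AGGTCA with 1 base between (a site type of the adipocyte regulator PPARG), TATAAA and the MEF2 core CTAAAAATA were in none of the 14 windows and in 0.0396%, 13.6% and 0.517% of all. A match says only that these letters are present.

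Among the coat genes, Plin1, Plin2 and Cidec were high in the fat pad, Plin4 was high in tendon library 1 and in muscle, and Plin5 was low everywhere. In bulk tissue, fewer cells of a type and less RNA per cell cannot be told apart. Plin1, the adipocyte perilipin, had 353 and 430 CPM in fat pad libraries, 306 and 21.4 in tendon, and 13.9 and 47.9 in muscle. Tendon library 1 lay close to the fat pad and tendon library 2 lay within the muscle range. Plin1 rose in the fat pad over muscle by 3.66 ± 1.17 on the log2 scale (SE, n = 2 libraries a tissue here and throughout; adjusted p = 0.0318, from the quasi-likelihood F-test of edgeR adjusted over all genes by Benjamini-Hochberg). That call was lost without fat pad library 1 (log2 fold change 3.83, edgeR adjusted p = 0.0721), fat pad library 2 (3.51, 0.0961), muscle library 1 (3.03, 0.137) or muscle library 2 (4.81, 0.0547). Over tendon the fat pad stood at 1.26 ± 1.07 on the log2 scale for Plin1 (edgeR adjusted p = 0.343). Without tendon library 1 the same contrast was called at 4.24 (edgeR adjusted p = 0.00302), without tendon library 2 it stood at 0.35 (0.668), and in the TPM columns it was -0.07 with a pseudocount of 1.

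**Figure D1:**
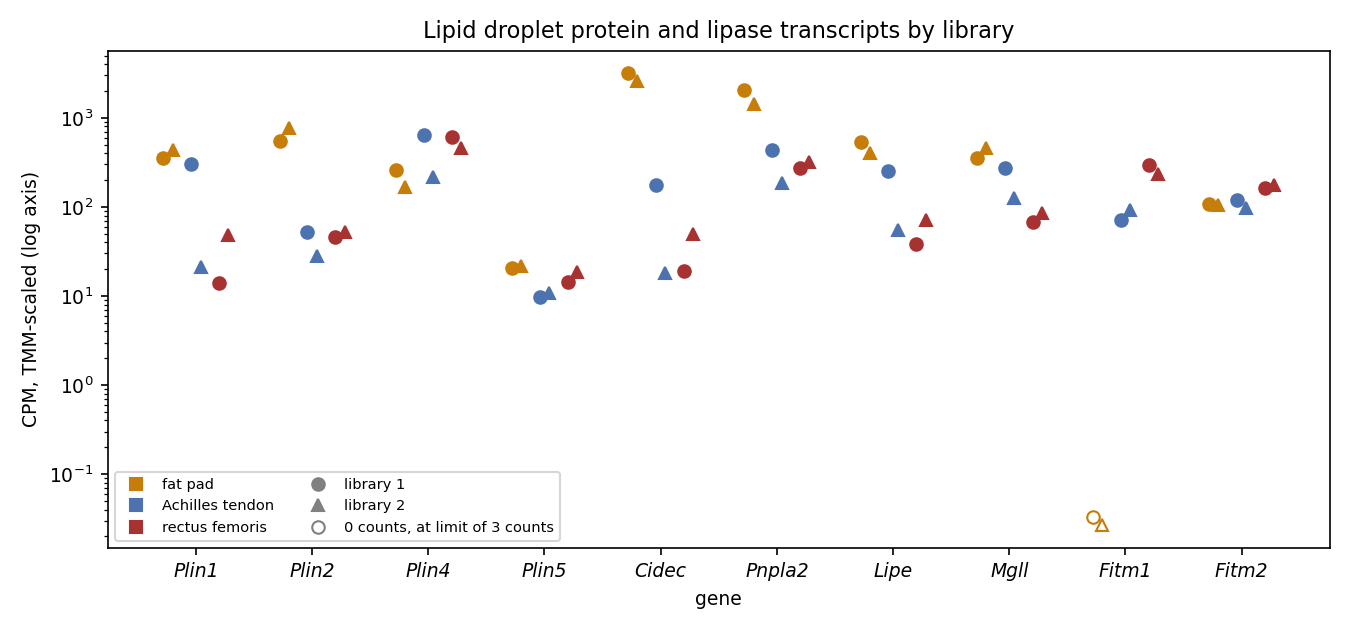
TMM-scaled CPM of the 10 genes (log axis) in each library, with circles for library 1 and triangles for library 2 of the fat pad, Achilles tendon and rectus femoris. Cidec and Pnpla2 reach 1412 to 3156 CPM in the fat pad, Plin1 and Cidec differ most between the 2 tendon libraries, and the 2 open Fitm1 symbols mark 0 counts drawn at the limit of 3 counts.

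Plin2, the perilipin found on droplets of most cell types, had 550 and 765 CPM in fat pad libraries, 51.7 and 27.9 in tendon, and 45.8 and 52.3 in muscle. Both fat pad libraries lay above the other 4, while tendon and muscle overlapped. Plin2 rose in the fat pad over muscle by 3.75 ± 0.38 on the log2 scale and over tendon by 4.05 ± 0.38 (edgeR adjusted p = 0.000209 and 0.000194). Cidec, which promotes the merging of small droplets into large ones, had 3156 and 2572 CPM in fat pad libraries, 175 and 18.2 in tendon, and 19.1 and 49.1 in muscle. It was the highest member in the fat pad per length of exon, at 1701 and 1386 CPM per kb, and also in the TPM columns, at 2665 and 2246 TPM. Cidec rose in the fat pad over muscle by 6.39 ± 1.17 on the log2 scale and over tendon by 4.89 ± 1.09 (edgeR adjusted p = 0.00306 and 0.00741). Single libraries moved these Cidec differences, to 7.23 over muscle without muscle library 2, to 7.35 over tendon without tendon library 1 and to 4.02 over tendon without tendon library 2, and all 3 remained called.

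Plin4, which coats small and growing droplets through a long repeat region, had 261 and 168 CPM in fat pad libraries, 648 and 215 in tendon, and 617 and 453 in muscle. Both fat pad libraries lay below both muscle libraries, and tendon library 2 lay within the fat pad range. The fat pad stood at -1.32 ± 0.52 against muscle and at -1.01 ± 0.52 against tendon on the log2 scale, and neither was called (edgeR adjusted p = 0.0646 and 0.135). Without either tendon library, Plin4 was called lower in the fat pad against muscle (-1.28 and -1.32, edgeR adjusted p = 0.0062 and 0.00574), as it was with only these 2 tissues (-1.31, 0.00639) and by DESeq2 (-1.29, adjusted p = 0.0151). Against tendon, Plin4 was called lower without tendon library 2 (-1.60, edgeR adjusted p = 0.00569) and stood at 0.045 without tendon library 1. In the TPM columns Plin4 had 56.6 and 37.6 TPM in fat pad libraries, 311 and 232 in tendon, and 203 and 109 in muscle, without overlap between the fat pad and either tissue. By limma on log2(TPM + 1) it was lower in the fat pad by -2.51 against tendon and -1.66 against muscle (adjusted p = 0.000127 and 0.0017), where the median gene stood at -0.96 and -0.41.

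Plin5, the perilipin that ties droplets to mitochondria in oxidative tissue, had 20.5 and 21.5 CPM in fat pad libraries, 9.69 and 10.7 in tendon, and 14.2 and 18.6 in muscle. None of the 3 tissues overlapped in Plin5. The fat pad was higher than tendon by 1.04 ± 0.22 on the log2 scale (edgeR adjusted p = 0.00593) and stood at 0.35 ± 0.22 against muscle (edgeR adjusted p = 0.199). With scaling by total counts the value against muscle was 0.86 and was called (edgeR adjusted p = 0.0177), where the median gene stood at 0.66. The TPM columns gave the other direction against tendon, with 19.9 and 21.6 TPM in the fat pad and 51.9 and 33.5 in tendon. There Plin5 was called lower in the fat pad by limma, at -0.97 (adjusted p = 0.0126), close to the -0.96 of the median gene. The direction of Plin5 between fat pad and tendon thus differs between the deposited counts and the deposited TPM.

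All 3 lipase genes rose in the fat pad over muscle, and Pnpla2 rose over tendon too. Pnpla2, the lipase that takes the first fatty acid from triglyceride, had 2071 and 1412 CPM in fat pad libraries, 441 and 186 in tendon, and 273 and 319 in muscle. Tendon and muscle overlapped, and the fat pad lay above both. Pnpla2 rose in the fat pad by 2.56 ± 0.46 over muscle and by 2.47 ± 0.46 over tendon on the log2 scale (edgeR adjusted p = 0.00296 and 0.00346), and the second value was 3.27 without tendon library 1. Lipe, whose product acts mainly on diglyceride, had 540 and 402 CPM in fat pad libraries, 252 and 54.7 in tendon, and 37.8 and 70.7 in muscle. Lipe rose in the fat pad over muscle by 3.12 ± 0.71 on the log2 scale (edgeR adjusted p = 0.00845), a call lost without muscle library 1 (2.73, edgeR adjusted p = 0.0565). Against tendon, Lipe stood at 1.62 ± 0.67 (edgeR adjusted p = 0.0763), and without tendon library 1 it was called at 3.16 (edgeR adjusted p = 0.00118) and without tendon library 2 it stood at 0.89 (0.108). It was called by DESeq2 with all libraries (1.74, adjusted p = 0.00791). Mgll, which frees the last fatty acid and also breaks down the endocannabinoid 2-arachidonoylglycerol, had 354 and 453 CPM in fat pad libraries, 270 and 125 in tendon, and 68.0 and 86.2 in muscle. The 3 tissues did not overlap in Mgll.

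Mgll rose in the fat pad over muscle by 2.39 ± 0.40 on the log2 scale (edgeR adjusted p = 0.00201) and stood at 1.03 ± 0.38 against tendon (edgeR adjusted p = 0.052). Against tendon, Mgll was called without tendon library 1 (1.74, edgeR adjusted p = 0.0024; 0.57 and 0.132 without tendon library 2), with DESeq2's size factors (1.16, edgeR adjusted p = 0.033), and by DESeq2 (1.16, adjusted p = 0.00515). In the TPM columns Mgll had 76.7 and 101 TPM in the fat pad and 91.9 and 94.5 in tendon, which overlap. Lipe there had 130 and 99.8 TPM in the fat pad and 90.9 and 83.8 in tendon.

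Fitm1, the FIT protein of heart and skeletal muscle, had 0 counts in both fat pad libraries, against 5468 and 6756 counts in tendon and 12045 and 10658 in muscle. A count of 0 allowed up to 0.0332 and 0.0267 CPM in the fat pad, taking 3 counts per library as the limit. Fitm1 was therefore at least 8850-fold lower in the fat pad than in muscle, at least 2727-fold lower than in tendon, and was called in both contrasts (edgeR adjusted p = 3.64e-05 and 5.56e-05). In muscle it was the highest member per length of exon, at 304 and 242 CPM per kb, and also in the TPM columns, where tendon libraries had 878 and 656 TPM and muscle libraries 921 and 1040 TPM. The fast muscle markers moved with it. All 10 were above 0 in every library, with summed levels of 132 and 112 CPM in fat pad libraries, 22374 and 67157 in tendon (54187 and 30713 in TPM, the other order), and 299425 and 266212 in muscle, and their part in the Fitm1 result was not tested. Fitm2, the FIT protein expressed in most tissues including fat, had 108 and 105 CPM in fat pad libraries, 119 and 96.1 in tendon, and 164 and 176 in muscle. It was lower in the fat pad than in muscle by -0.68 ± 0.20 on the log2 scale (edgeR adjusted p = 0.0219). That call was lost without any one of the 4 libraries of these 2 tissues (-0.73 to -0.63, edgeR adjusted p = 0.0777 to 0.122) and with scaling by total counts (-0.16, edgeR adjusted p = 0.543).

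In the fat pad over muscle, 6 of the 10 genes were called higher (Plin1, Plin2, Cidec, Pnpla2, Lipe and Mgll) and 2 lower (Fitm1 and Fitm2), where 29.8% of the 15856 genes tested were called higher and 29.6% lower (59.4% in all). The median log2 fold change was 2.47 over the 10 genes, the same with Fitm1 at its bound, and 0.14 over all genes. In the fat pad over tendon, 4 were called higher (Plin2, Plin5, Cidec and Pnpla2) and 1 lower (Fitm1), against 27.2% and 31.4% of all genes (58.5% together), with medians of 1.15 and -0.01. Without tendon library 1, Plin1, Lipe and Mgll stood at 4.24, 3.16 and 1.74 over tendon. Most adipocyte markers moved with both sets of calls, with 9 of 10 called higher over muscle and 7 over tendon. Slc2a4, the insulin-regulated glucose transporter, was called lower in both contrasts, at 159 and 143 CPM in fat pad libraries, 281 and 316 in tendon, and 815 and 782 in muscle. All 10 of that list were above 0 in every library. Their sums were 102038 and 113873 CPM in fat pad libraries, 6767 and 3234 in tendon, and 3535 and 5352 in muscle. In TPM the tendon sums were 14282 and 13388. Cfd, Car3 and Fabp4 weigh most in the fat pad sums of CPM. Macrophage markers (8 genes, all above 0) summed to 1686 and 2750 CPM in fat pad libraries, 280 and 218 in tendon, and 319 and 278 in muscle. Synovial lining markers (6 genes, all above 0) summed to 16246 and 18436, 1401 and 830, and 488 and 516 CPM in the same order. Neutrophil markers (6 genes) summed to 1789 and 237 CPM in fat pad libraries and to at most 6.32 CPM elsewhere (in TPM, 575 in tendon library 2), with Ltf, Ngp and S100a9 at 0 in tendon library 1, Retnlg at 0 in tendon library 2 and Ltf at 0 in muscle library 1. Of these lists, 6 macrophage, 5 synovial lining and 6 neutrophil markers were called higher in the fat pad over either tissue, and 1 synovial lining marker was lower over muscle. Of the 7 brown and beige fat markers, 2 were called higher and 4 lower over tendon, and 1 higher and 3 lower over muscle. The part of these cell types in the calls was not tested.

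**Figure D2:**
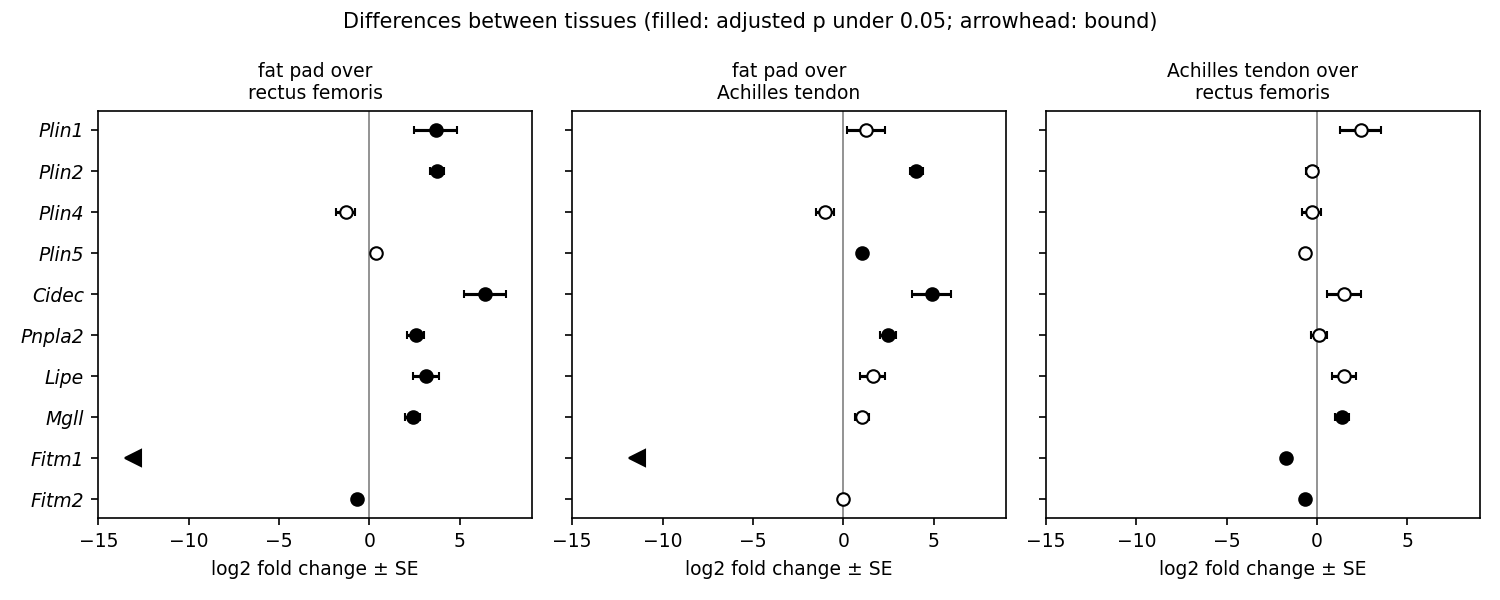
Log2 fold changes with SE for the 10 genes in the fat pad over rectus femoris, the fat pad over Achilles tendon and the Achilles tendon over rectus femoris, from edgeR's fit of all 6 libraries. Filled points passed an adjusted p of 0.05, and the Fitm1 arrowheads are bounds against the limit of 3 counts per library, at least 8850-fold and 2727-fold lower in the fat pad.

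In tendon over muscle, 1 of the 10 genes was called higher (Mgll) and 2 lower (Fitm1 and Fitm2), where 13.3% of all genes were called higher and 12.7% lower (26.0% together). The median log2 fold change was -0.11 over the 10 genes and 0.10 over all genes. Slow muscle markers moved in this contrast, with 7 of 7 called higher in tendon and sums of 12331 and 6377 CPM in tendon and 90.8 and 142 in muscle, and fast muscle markers had 0 of 10 higher and 5 lower. Their part in these calls was not tested. Fitm1 was lower in tendon by -1.70 ± 0.25 on the log2 scale (edgeR adjusted p = 0.0108), Fitm2 by -0.66 ± 0.20 (0.0481), and Mgll was higher by 1.36 ± 0.38 (0.0428). The Fitm1 call was lost without muscle library 1 (-1.52, edgeR adjusted p = 0.0859) and without muscle library 2 (-1.84, 0.0609). The calls of Mgll and Fitm2 were lost with the library number as a block (1.32 and -0.67, edgeR adjusted p = 0.0792 and 0.0972). Without single libraries the Mgll difference ran from 0.68 to 1.81 and was called only without tendon library 2, and the Fitm2 difference ran from -0.84 to -0.51 and was called in none of the 6 such fits. Of all genes, 43 were called without muscle library 1 and 19 without muscle library 2, against 4127 with all libraries. Plin1, Lipe and Cidec stood at 2.41, 1.50 and 1.50 and were not called (edgeR adjusted p = 0.149, 0.139 and 0.271). These 3 were called higher in tendon without tendon library 2 (3.31, 2.22 and 2.37, edgeR adjusted p = 0.00947, 0.0082 and 0.0149) and stood at -0.54, -0.0038 and -0.92 without tendon library 1. In the TPM columns limma called 6 of the 9 genes tested higher in tendon and none lower, and Plin5 was among the 6. Of all 13647 genes in that fit, 5044 were called in either direction, and the median gene stood at 0.52. Fitm1 was not in that test, since no fat pad TPM was used for it.

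The makeup of the perilipin family differed between tissues, with Plin2 the largest part in the fat pad and Plin4 the largest part in tendon and muscle. Shares were taken within a library from counts per kb of exon over Plin1, Plin2, Plin3 (the perilipin of most cell types, no member of the list), Plin4 and Plin5, so they do not depend on scaling between libraries. Plin2 made up 50.6% and 58.0% of perilipin transcript in fat pad libraries, 7.0% and 12.1% in tendon, and 9.20% and 11.9% in muscle. Plin4 made up 14.6% and 7.74% in fat pad libraries, 53.4% and 56.7% in tendon, and 75.3% and 62.8% in muscle. Plin1 held 24.6% in both fat pad libraries, 31.4% and 7.01% in tendon, and 2.11% and 8.25% in muscle. With 2 libraries a group, an exact two-sided permutation test of such a share cannot go below p = 0.333, and none is given. In the TPM columns Plin4 was again the largest part in tendon (47.6% and 39.8%) and muscle (60.9% and 42.2%), and Plin2 in the fat pad (51.8% and 57.9%). The Plin1 share in tendon TPM was 23.9% and 28.2%, without the gap between libraries seen in counts. Shares also depend on the length used. With the longest transcript as length, Plin4 held 42.2% and 48.9% in tendon and 68.7% and 54.1% in muscle. Plin1 then held 40.8% in tendon library 1, close to Plin4. Plin2 held 58.8% and 64.9% in the fat pad.

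**Figure D3:**
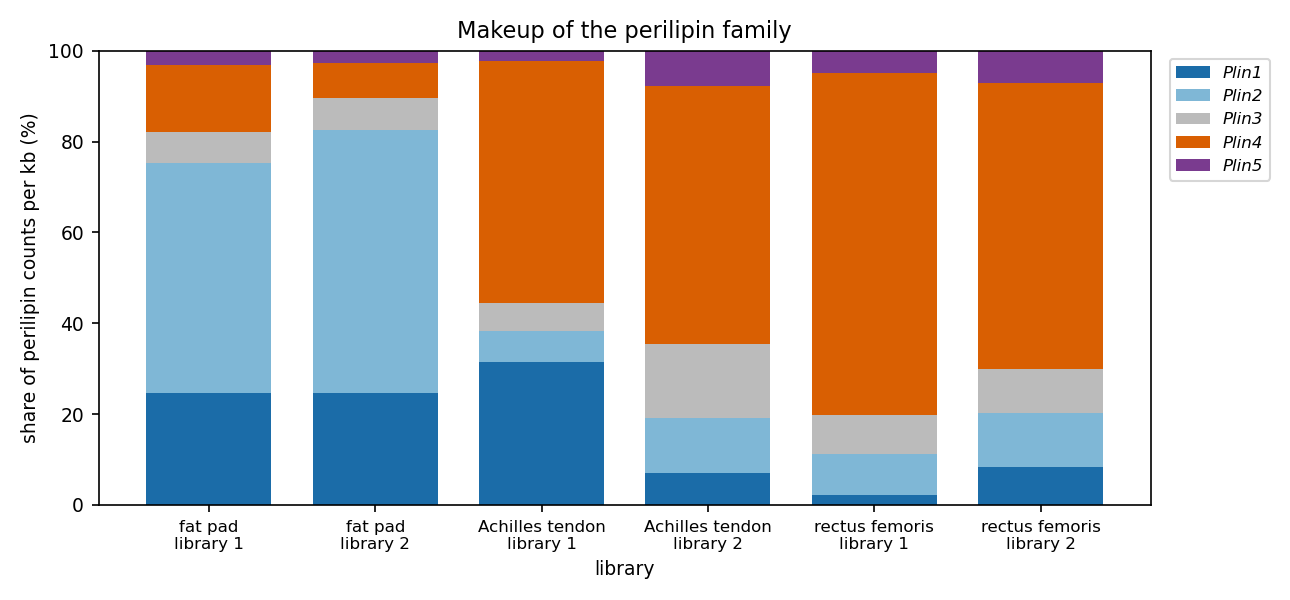
Share of each perilipin gene in the summed perilipin counts per kb of exon (%), one bar per library. Plin2 with Plin1 fills most of both fat pad bars, and Plin4 fills 53.4% to 75.3% of the tendon and muscle bars. Tendon library 1 has the largest Plin1 share in counts, 31.4%. In TPM, not drawn, tendon library 2 has the largest (28.2%, against 23.9% in tendon library 1).

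Among the 3 lipases, Pnpla2 was the largest part in every library. It held 80.9% and 74.8% of lipase counts per kb in fat pad libraries, 60.3% and 64.6% in tendon, and 82.0% and 78.5% in muscle. Mgll held 8.24% and 14.3% in fat pad libraries, 22.0% and 25.7% in tendon, and 12.1% and 12.6% in muscle. Of the 2 FIT genes, Fitm1 held 0 in the fat pad, 70.7% and 79.8% in tendon, and 88.0% and 84.5% in muscle. By mean level per kb of exon, the leading 3 of the 10 genes were Cidec, Pnpla2 and Plin2 in the fat pad, Pnpla2, Fitm1 and Plin4 in tendon, and Fitm1, Pnpla2 and Plin4 in muscle. In tendon the ranges of those 3 overlapped over the libraries (61.6 to 146, 72.5 to 95.6 and 37.2 to 112 CPM per kb). By mean TPM the order differed, with Fitm1 (767 TPM), Pnpla2 (305) and Plin4 (271) leading in tendon and Fitm1 (980), Fitm2 (228) and Plin4 (156) in muscle.

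Set against Adipoq in the same library, all 10 genes had fewer counts in both fat pad libraries than in any of the other 4, by amounts that differed between genes. This ratio was chosen after values were seen and is a description. Adipoq averaged 5414 CPM in the fat pad, 147 in tendon and 45.4 in muscle. A gene that rises less than Adipoq in the fat pad has a lower ratio there by construction. The share of all genes that do so was not computed, so the lower ratios say nothing particular about these 10 genes. Per 100 Adipoq counts, Cidec had 59.4 and 46.7 counts in fat pad libraries, 65.1 and 73.2 in tendon, and 81.0 and 73.0 in muscle. Plin1 had 6.65 and 7.80 counts per 100 Adipoq counts in fat pad libraries, 114 and 86.1 in tendon, and 59.2 and 71.2 in muscle, so that all 4 tendon and muscle libraries lay above both fat pad libraries. Lipe had 10.2 and 7.29 in fat pad libraries, 93.9 and 220 in tendon, and 161 and 105 in muscle. Plin4 had 4.91 and 3.05 in fat pad libraries, 241 and 865 in tendon, and 2622 and 674 in muscle.

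In the deposited TPM columns Plin1 again lay lower in both fat pad libraries. Plin1 had 1.20 and 1.41 TPM per 100 TPM of Adipoq in fat pad libraries, 19.9 and 18.6 in tendon, and 17.1 and 13.5 in muscle. Cidec had 23.7 and 18.6 in fat pad libraries, 29.2 and 20.7 in tendon, and 42.2 and 37.1 in muscle. Plin1 and Cidec stood in different proportions inside and outside the fat pad, with 11.2 and 16.7 Plin1 counts per 100 Cidec counts in fat pad libraries, 175 and 118 in tendon, and 73.0 and 97.5 in muscle.

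**Figure D4:**
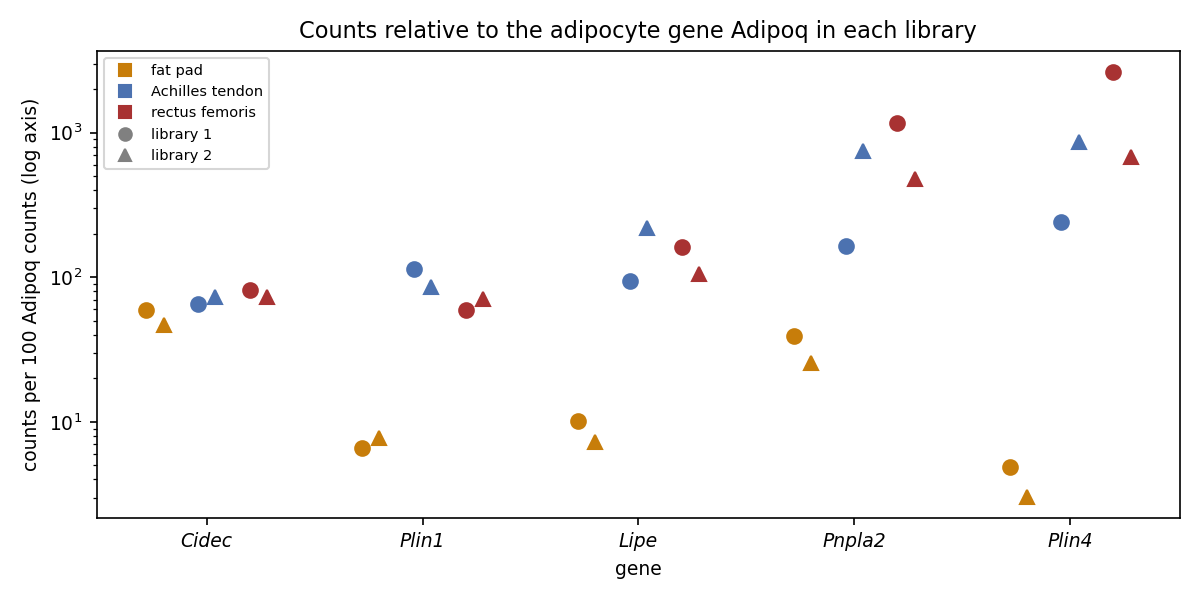
Counts of 5 genes per 100 counts of the adipocyte gene Adipoq in each library (log axis), by tissue and library number. All 5 genes lie lower in both fat pad libraries than in any tendon or muscle library, Cidec within 46.7 to 81.0 over the 6 libraries and Plin4 within 3.05 to 2622. Adipoq itself is far higher in the fat pad, which lowers the ratio of any gene that rises less.

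In counts, the 10 genes differed little between the 2 fat pad libraries, and most of them differed much between the 2 tendon libraries. In the fat pad the ratio of library 1 over library 2 ran from 0.718 (Plin2) to 1.56 (Plin4) over the 9 genes with counts. None reached 2-fold either way, where 8.78% of all genes were at least 2-fold higher in library 1 and 6.38% at least 2-fold lower. In tendon 6 of the 10 genes were at least 2-fold higher in library 1 than in library 2, as were 11.0% of all genes tested, and none was 2-fold lower, where 5.63% of all genes were. The tendon ratio was 14.3 for Plin1 (95% interval 13.6 to 15.1), 9.63 for Cidec (9.10 to 10.2) and 4.62 for Lipe (4.46 to 4.78), with exact conditional binomial intervals that cover counting error only. Fitm1 (0.759) and Plin5 (0.904) lay below 1. In muscle, 2 genes were at least 2-fold lower in library 1, Plin1 (0.291) and Cidec (0.388), against 5.74% of all genes, and none was 2-fold higher, against 4.53%. Adipoq moved with them, at 269 and 24.9 CPM in tendon libraries 1 and 2 and at 23.5 and 67.2 in muscle libraries 1 and 2, and its part in these ratios was not tested. In the tendon TPM columns no gene of the 10 reached 2-fold (0.819 to 1.55), with 156 and 164 TPM for Plin1 and 784 and 880 TPM for Adipoq. In the authors' deposited tables, which set library 1 against library 2 within a tissue, the adjusted p of each of these genes was 0.99989 or above. Their log2 fold changes in tendon were 0.17 for Plin1, 0.58 for Cidec and 0.67 for Fitm1. The TMM-scaled counts gave 3.84, 3.27 and -0.40 for the same genes, so that p does not speak to the ratios from counts.

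**Figure D5:**
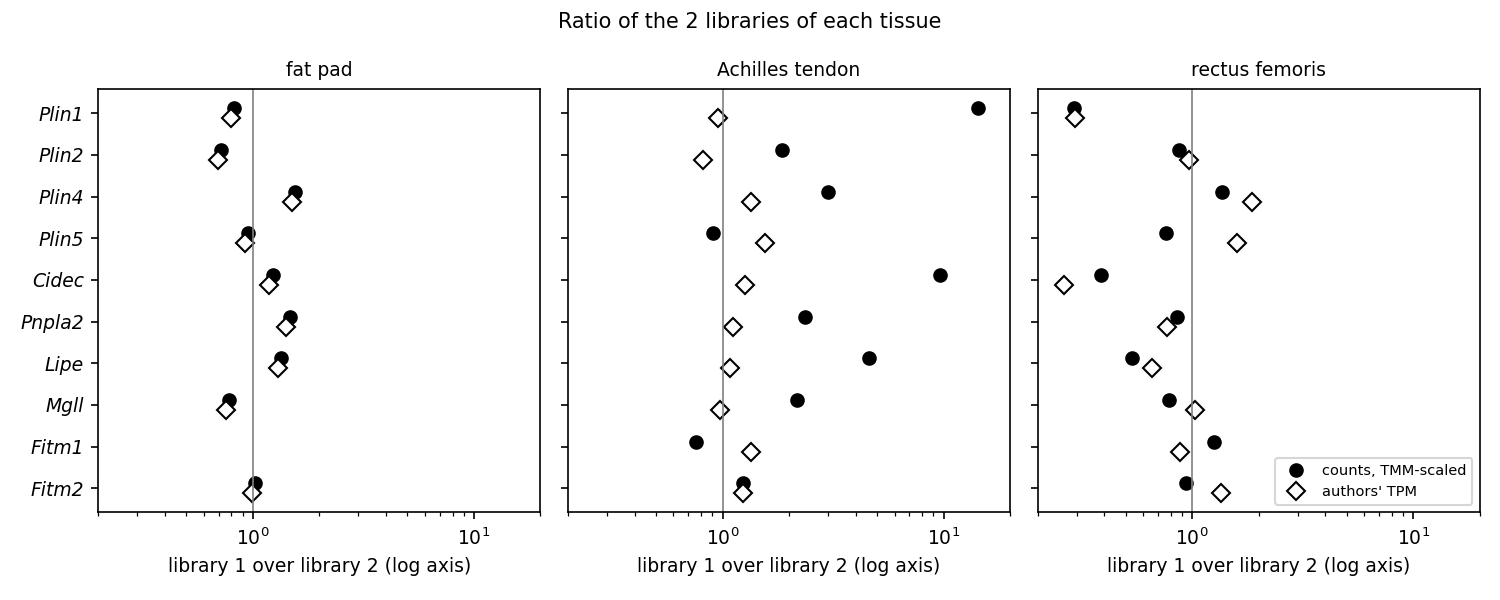
Ratio of library 1 over library 2 (log axis) for the 10 genes in each tissue, from TMM-scaled counts (filled circles) and from the authors' TPM (open diamonds). The 2 measures lie together in the fat pad and apart in tendon, where Plin1 has 14.3 in counts and 0.95 in TPM.

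Of 12 genes that control lipolysis, 9 rose and 2 fell in the fat pad over muscle, and 7 rose and 1 fell over tendon, where 29.8% and 29.6% of all genes were called higher and lower over muscle and 27.2% and 31.4% over tendon. Adrb3, the adrenergic receptor of adipocytes, stood at 166 ± 17.6 CPM in fat pad libraries against 7.22 ± 6.20 in muscle (mean ± SD, n = 2 each), higher by 4.52 ± 0.98 on the log2 scale (edgeR adjusted p = 0.0065). G0s2, an inhibitor of the Pnpla2 lipase, stood at 321 ± 2.56 CPM in fat pad libraries against 15.0 ± 5.64 in muscle, higher by 4.41 ± 0.48 (edgeR adjusted p = 0.0003). Hcar1, the lactate receptor that restrains lipolysis, and Prkar2b, a regulatory subunit of protein kinase A, had 4.71 and 4.30 over muscle (edgeR adjusted p = 0.0154 and 0.0136). Over tendon, Adrb3, G0s2 and Adrb1 had 4.65, 4.06 and 2.89 (edgeR adjusted p = 0.00588, 0.00043 and 0.0169). Adrb1 was low throughout, at 2.89 and 1.57 CPM in fat pad libraries and 0.31 and 0.29 CPM in tendon. Npr1, a receptor for natriuretic peptides, was called lower in the fat pad in both contrasts.

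Of 11 other droplet genes tested, 7 rose in the fat pad over muscle and 8 over tendon (29.8% and 27.2% of all genes, as for the next lists), and Hsd17b11, a droplet-bound dehydrogenase, was lower in both. Cidea, a relative of Cidec, averaged 250 ± 85.6 CPM in fat pad libraries, 1.44 ± 0.90 in tendon and 1.21 ± 0.75 in muscle, log2 fold changes of 7.44 and 7.70 (edgeR adjusted p = 0.000184 and 0.000146). Bscl2, which encodes the droplet assembly protein seipin, was higher by 3.32 over tendon and 3.81 over muscle (edgeR adjusted p = 0.000279 and 0.000156). A list of 9 further genes held other lipases and Gpihbp1, which is not itself a lipase and rose in both contrasts. Of these 9, 8 rose in the fat pad over muscle and 7 over tendon, led by the carboxylesterases Ces1f (6.83 and 5.13) and Ces1d (4.24 and 4.35). Those esterases have close paralogs, so their counts are uncertain. Their edgeR adjusted p lay between 0.0027 and 0.00808. Of 10 triglyceride synthesis genes, 6 were higher and 2 lower in each contrast, with Dgat1, which makes triglyceride from diglyceride, higher by 4.53 over muscle and 3.79 over tendon (edgeR adjusted p = 0.000656 and 0.00128). Gpam, which starts glycerolipid synthesis, was lower in the fat pad in both. In tendon over muscle, 2 of 12 lipolysis genes, 2 of 11 droplet genes, 1 of the 9 genes listed with the lipases and 2 of 10 synthesis genes were higher, and 1, 0, 0 and 2 were lower, against 13.3% and 12.7% of all genes.

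The genes most like a member were those with the smallest Euclidean distance in centred log2 CPM over the 6 libraries, among 10893 named genes with at least 10 CPM in 1 library. For Plin1 these were Rbm47, Tenm4 and Acvr1c (distances 0.79, 0.86 and 0.86 in log2 units). For Fitm1 they were Hrc, which binds calcium inside the muscle reticulum (0.38), Trim72, which helps to reseal muscle membranes (1.19), and Eef1a2, the elongation factor of muscle and neurons (1.37). For Plin5 they were Snx16, Suclg2 and Clcc1 (0.24, 0.25 and 0.26), for Plin4 Col14a1, Il1rl2 and Arhgap19 (0.54, 0.56 and 0.61), and for Pnpla2 Enpp5, Nfam1 and Cldn15 (0.55, 0.57 and 0.62). Among the members, the closest pair was Plin5 with Fitm2 (1.26), and Plin1 was closest to Lipe (1.59).

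Reads in shared exons limit some values. On the GENCODE M21 annotation, 15.6% of the exonic bases of Lipe, 11.2% of those of Fitm1, 5.72% of Fitm2 and 3.29% of Mgll also belong to a gene on the other strand. The strand setting of the counting is not given, so reads there cannot be assigned to 1 gene.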

How the data were processed

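RNA-seq tables of 6 libraries from mouse fat pad, Achilles tendon and rectus femoris were used. The authors deposited raw counts of reads per Ensembl gene and TPM tables that also hold, per the file headers, their log2 fold change and adjusted p-value of library 1 over library 2. Bowtie2, RSEM 1.3.1, DESeq2 1.4.5 and GRCm39 appear in the submitters' processing notes, without roles. How reads were counted, and on which strand, is not given there. Samples were grouped by the label that names 3 tissues, since source and tissue labels read fat pad throughout.

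Counts of 16964 genes listed for all tissues were scaled by TMM, filtered with filterByExpr to 15856 genes and fitted over all 6 libraries with 1 term per tissue (edgeR 4.0.16, R 4.3.3, glmQLFit and glmQLFTest, Benjamini-Hochberg threshold 0.05). SE is the log2 fold change over the root of F. Alternatives were DESeq2 1.42.0, limma 3.58.1 on log2(TPM + 1) over 13647 genes with at least 1 TPM in 2 libraries, other scalings, no filter, a library-number block, 2 tissues at a time and leaving out each library. The fit was tested on simulated data. Same-numbered libraries did not deviate together (r = 0.0022, -0.027 and -0.17 across genes). These values compare unlike tissues and cannot show whether same-numbered libraries share an animal. Pairing by number is therefore unknown, and the main fit assumed none.

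Lengths and shared exons came from GENCODE M21 on GRCm38, and promoter windows from RefSeq on GRCm38.p6, which matched all 10 genes; no coordinate was carried between builds. Limits and intervals cover counting error only. All 10 genes are named, and pathway genes were named where called, up to 4 per list and comparison by size of change; 1 such gene is not reported here. The genes and lists were chosen with earlier results of these data known.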

Additional observations from a re-analysis of the deposited data

How the results depend on the processing

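Calls between the fat pad and muscle kept their direction in every alternative run, and calls were lost mainly where a library was left out. Values are log2 fold changes. In the fat pad over tendon, Fitm2 changed sign with DESeq2 size factors (0.096), with only the 2 tissues (0.0090) and with DESeq2 (0.096). TPM with pseudocounts of 1 and 0.1 gave -0.075 and -0.075 for Plin1, -0.97 and -1.0 for Plin5, and -0.078 and -0.079 for Mgll. In tendon over muscle, total counts gave 0.45 for Plin2, 0.47 for Plin4, 0.031 for Plin5 and 0.074 for Fitm2, and the library-number block gave -0.046 for Pnpla2. The TPM fits there gave 0.44 and 0.44 for Plin2, 0.85 and 0.85 for Plin4, 1.16 and 1.20 for Plin5, and 0.12 and 0.12 for Fitm2. Total-count scaling moved the median of all genes by 0.51, -0.21 and 0.73 in the fat pad over muscle, the fat pad over tendon and tendon over muscle.

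The number of the 10 genes called lower in the fat pad than in muscle was 1 with total counts and 3 with only the 2 tissues and with DESeq2, where Plin4 was added, and lower than in tendon 3 with both TPM fits. The number higher than in tendon was 5 with DESeq2 size factors and 6 with DESeq2. In tendon over muscle the number called higher was 2 with total counts, 0 with the block, 0 with only the 2 tissues, and 6 and 6 with TPM. The number called lower there was 1 with total counts, without the filter, with the block and with only the 2 tissues, and 0 and 0 with TPM, and it was 3 with DESeq2 size factors and with DESeq2, where Plin5 was added (-0.75 in both, adjusted p = 0.048 by edgeR and 0.0162 by DESeq2). Calls over all genes, in either direction, moved too. In tendon over muscle they were 6367 with total counts, 2759 with the block, 4077 with DESeq2 size factors and 5803 with DESeq2, against 4127. There the TPM fits called 5044 and 4536 of 13647, and only the 2 tissues gave 4167 of 14875. The fat pad over tendon had 9336 with DESeq2 size factors and 10034 with DESeq2, against 9280. The fat pad over muscle had 9770 with total counts and 10131 with DESeq2, against 9426. The cause was not tested. The block also brought Plin4 below the threshold in the fat pad over muscle (-1.35, edgeR adjusted p = 0.0217), and otherwise lost no call of the fat pad.

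Leaving out single libraries gave 4 to 6 genes higher and 1 to 3 lower in the fat pad over muscle, 4 to 7 and 1 to 2 in the fat pad over tendon, and 0 to 4 and 0 to 1 in tendon over muscle. The differences that changed sign ran from -0.17 to 0.20 for Fitm2 and -1.60 to 0.045 for Plin4 in the fat pad over tendon. In tendon over muscle they ran from -0.54 to 3.56 for Plin1, -0.92 to 2.37 for Cidec, -0.68 to 0.58 for Pnpla2, -0.0038 to 2.22 for Lipe, -0.83 to 0.080 for Plin2 and -1.33 to 0.28 for Plin4. A fit with 1 library in a tissue assumes that it varies like the others.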
